A study of Mus musculus with 14 samples.

Results

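The genes examined here encode kinases and GTPases of the Ras, Raf, MEK and ERK cascade, measured in tumours of mice deficient in HIF-2α and of control mice. The members named were Hras, Nras, Araf, Braf, Map2k1, Map2k2 and Mapk3, and every probeset whose single platform gene symbol was one of these 7 was taken. Nras, Araf, Braf, Map2k1 and Map2k2 had such probesets, 8 in all, so 5 of the 12393 single genes in the annotation are described. Hras and Mapk3 had no probeset that named them alone in the annotation used here and were not analysed here. The deficient group held 7 arrays of tumour RNA from mice that the labels call both Hif2alpha deficient and a knockdown, and the control group held 7 arrays of tumour RNA from control mice. Both groups shared a mixed 129 SvJ/C57Bl6 background, and the labels give no age, other allele or agent for either. The part of the gene that was lost and the organ of the tumours are not given in the sources used here.

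Ras proteins are small GTPases of the inner plasma membrane that switch on when growth factor receptors recruit exchange factors. Active Ras binds Raf kinases, Raf phosphorylates the MEK kinases, MEK phosphorylates the ERK kinases, and ERK phosphorylates kinases and transcription factors that drive growth. Activated Ras and Raf genes are well known drivers of lung tumours, and most control of this cascade acts on protein activity, which arrays of RNA do not measure. HIF-2α, encoded by Epas1, is an oxygen-regulated transcription factor that pairs with ARNT and binds DNA at a short core motif.

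Values are log2 probeset levels, deposited by the authors after GCRMA, a method that subtracts background and normalises between arrays. A difference is deficient minus control on this scale, with the standard error (SE) and p of limma, and the adjusted p is by Benjamini-Hochberg over the 12701 probesets that lay above 4 in at least 7 of 14 arrays. A call is an adjusted p under 0.05. All 8 member probesets lay above 4 in all 14 arrays and were tested. Array medians ran from 5.13 to 5.20 in deficient arrays and from 5.19 to 5.29 in controls. Across probesets, deficient arrays correlated with each other at 0.945 to 0.990 and controls at 0.973 to 0.996. The 6 alveolar type II markers on the array, genes of the surfactant-making cells of the lung, had a mean level of 13.10 to 13.45 in deficient arrays and 13.23 to 13.43 in controls. Epas1 itself differed by -0.19 (SE 0.30, limma adjusted p = 0.807), and which part of it the probeset reads is not given. The array descriptions begin with a number, here called the leading number, that deficient 3 and 6 share, as do deficient 1 and 5, deficient 4 and 7, controls 1 and 4, and controls 2, 3, 5, 6 and 7, while deficient 2 has its own. No source used here says what it marks. The numbers that end the descriptions run through the deficient arrays before the controls, so array order and group cannot be told apart. Deviations from the group mean correlated at 0.11 on average between arrays with the same leading number and at -0.28 between other arrays of a group. Subtracting a group mean by itself draws such correlations below 0, so only the gap between these averages is read here. Given that gap, the 14 arrays may hold fewer independent samples, and p-values measure the spread between these arrays. RNA quality, taken as the mean 3′ minus 5′ level of 4 control genes, was 2.80 ± 0.23 in deficient arrays and 2.87 ± 0.34 in controls (SD, n = 7 each, exact permutation p = 0.692).

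None of the 8 member probesets was called between deficient and control tumours, where 0.0394% of all tested probesets were (5 of 12701). At an unadjusted p under 0.05 the count was 1, that of Map2k1, in the higher direction, beside 14.7% of all tested probesets (8.09% higher and 6.57% lower). Of the 8 differences 4 lay above 0 and 4 below, beside 52.6% above 0 over all tested probesets, with a median of 0.02, the same to 2 decimals as the median over all tested probesets. The groups overlapped in every member probeset, and 0.496% of all tested probesets had groups that did not overlap. Differences ran from -0.25 to 0.37, and the absolute difference of the widest, Map2k1, was exceeded by 21.2% of tested probesets.

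**Figure D1:**
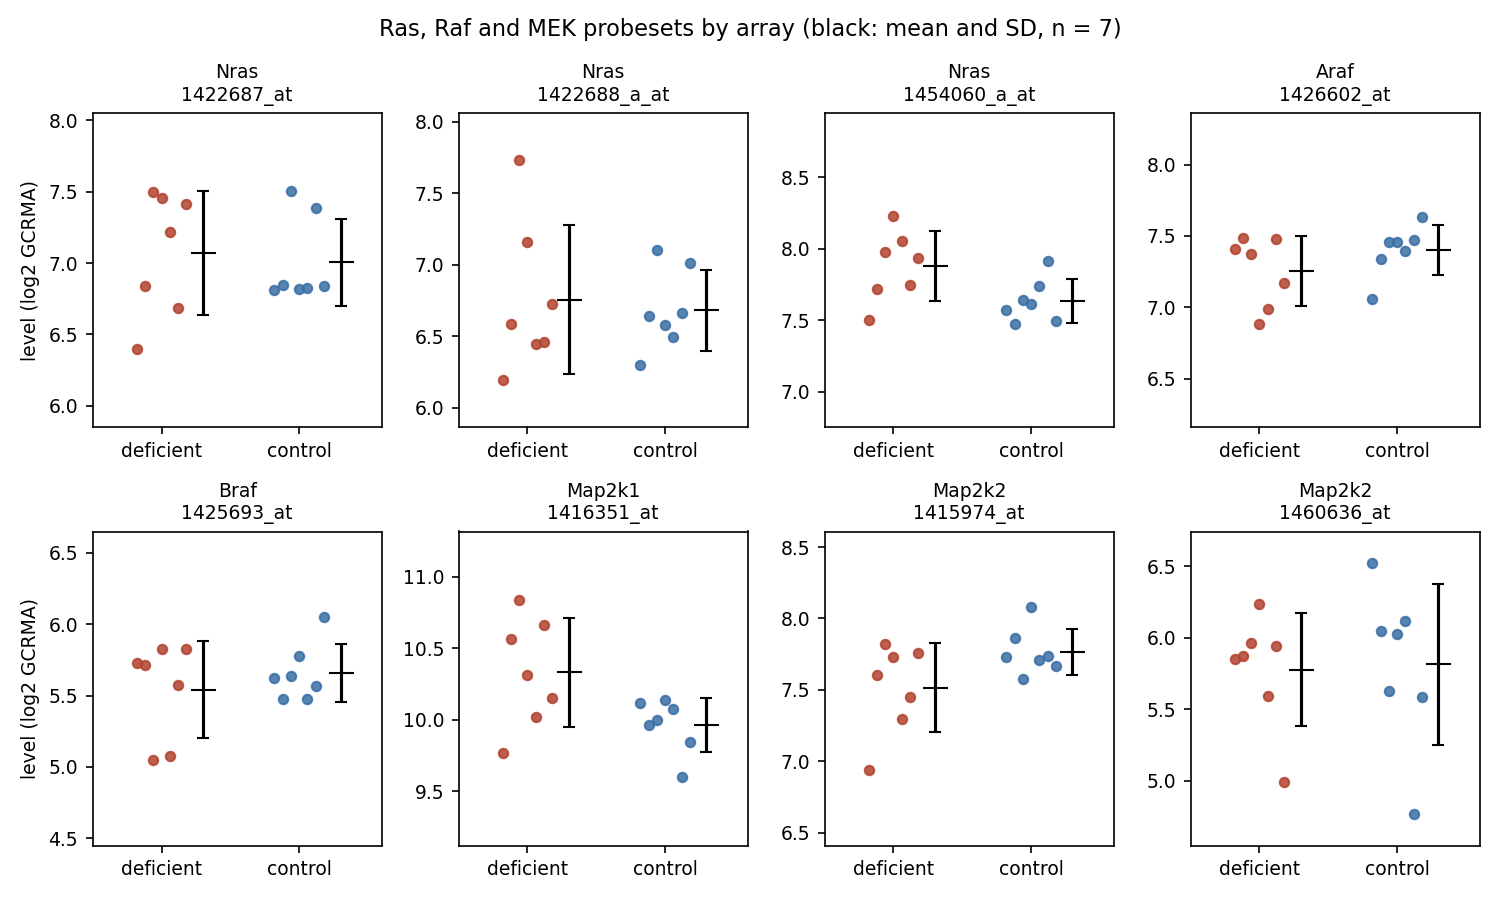
Level (log2 GCRMA, vertical axis, 2.2 units high in every panel) of each member probeset in the 7 deficient and 7 control arrays. Points are arrays, and the black bar shows the mean and SD. The groups overlap in each panel, and 5 of 7 deficient arrays lie above all controls in the Map2k1 panel.

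Nras encodes N-Ras, which cycles between the plasma membrane and the Golgi as palmitate is added to and removed from its tail. Probeset 1454060_a_at read from 7.50 to 8.23 with a median of 7.94 in deficient tumours, against 7.47 to 7.91 with a median of 7.62 in controls. Deficient 3, 4, 5 and 7 lay above every control and the other deficient arrays lay among them. Its mean was 7.88 ± 0.24 in deficient tumours and 7.64 ± 0.15 in controls (SD, n = 7 each), a difference of 0.24 (SE 0.12, 95% interval -0.01 to 0.50) that did not pass (limma adjusted p = 0.360, exact permutation p = 0.0431). The other probesets of Nras had smaller differences. Probeset 1422687_at read from 6.40 to 7.50 with a median of 7.22 in deficient tumours, against 6.81 to 7.51 with a median of 6.84 in controls (difference 0.07, SE 0.19, limma adjusted p = 0.905). Probeset 1422688_a_at read from 6.19 to 7.73 with a median of 6.58 in deficient tumours, against 6.30 to 7.10 with a median of 6.64 in controls (difference 0.07, SE 0.22, limma adjusted p = 0.907). Deficient 1 and 6 lay below every control in 1422687_at, while in 1422688_a_at deficient 3 and 4 lay above and deficient 1 below every control. The deviations of 1422687_at correlated with those of 1422688_a_at at 0.70 and with those of 1454060_a_at at 0.79, while 1422688_a_at and 1454060_a_at correlated at 0.42 over the 14 arrays.

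The Raf kinases link Ras to MEK. Araf, a gene of the X chromosome that encodes A-Raf, read from 6.89 to 7.49 with a median of 7.37 in deficient tumours, against 7.06 to 7.64 with a median of 7.46 in controls. Deficient 4 and 5 lay below every control, and the mean was 7.26 ± 0.24 in deficient tumours and 7.40 ± 0.18 in controls (SD, n = 7 each). The difference was -0.15 (SE 0.12, 95% interval -0.41 to 0.12, limma adjusted p = 0.622). With the level of the Y-linked gene Eif2s3y as a covariate the Araf difference was -0.13 (limma adjusted p = 0.594). No member was called with this covariate, as none was without it, and Eif2s3y lay above 4 in 2 of 7 arrays of each group. Braf, which encodes B-Raf, the Raf kinase with the highest basal activity towards MEK, read from 5.05 to 5.83 with a median of 5.71 in deficient tumours, against 5.47 to 6.05 with a median of 5.62 in controls. Deficient 3 and 5 lay below every control. Its mean was 5.54 ± 0.34 in deficient tumours and 5.66 ± 0.20 in controls, a difference of -0.12 (SE 0.15, 95% interval -0.44 to 0.21, limma adjusted p = 0.758).

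Map2k1 encodes MEK1, a kinase that phosphorylates ERK. Its single probeset read from 9.77 to 10.84 with a median of 10.31 in deficient tumours, against 9.60 to 10.14 with a median of 9.99 in controls. Deficient arrays 2, 3, 4, 6 and 7 lay above every control, while deficient 1 and 5 lay among the controls. The mean was 10.33 ± 0.38 in deficient tumours and 9.96 ± 0.19 in controls (SD, n = 7 each), a difference of 0.37 (SE 0.16), or 1.29-fold with a 95% interval of 1.02 to 1.64. It did not pass the threshold (limma adjusted p = 0.308, unadjusted p = 0.0358), and the two-sided exact permutation p over all splits of the 14 arrays was 0.042. By its p it ranked 1475 among the 12701 tested probesets.

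Map2k2 encodes MEK2, the paralogue of MEK1 with the same substrates, and it has a pair of probesets. Probeset 1415974_at read from 6.94 to 7.82 with a median of 7.61 in deficient tumours, against 7.58 to 8.08 with a median of 7.73 in controls. Deficient 1, 5 and 6 lay below every control and the other deficient arrays lay among them. The mean was 7.52 ± 0.31 in deficient tumours and 7.77 ± 0.16 in controls (SD, n = 7 each), a difference of -0.25 (SE 0.14, 95% interval -0.55 to 0.05, limma adjusted p = 0.419). Probeset 1460636_at read from 4.99 to 6.23 in deficient tumours, against 4.76 to 6.53 in controls, and differed by -0.04 (SE 0.25, 95% interval -0.56 to 0.49). The annotation gives both probesets the same source sequence, and their deviations from the group means correlated at only 0.07 (Spearman 0.30) over the 14 arrays.

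**Figure D2:**
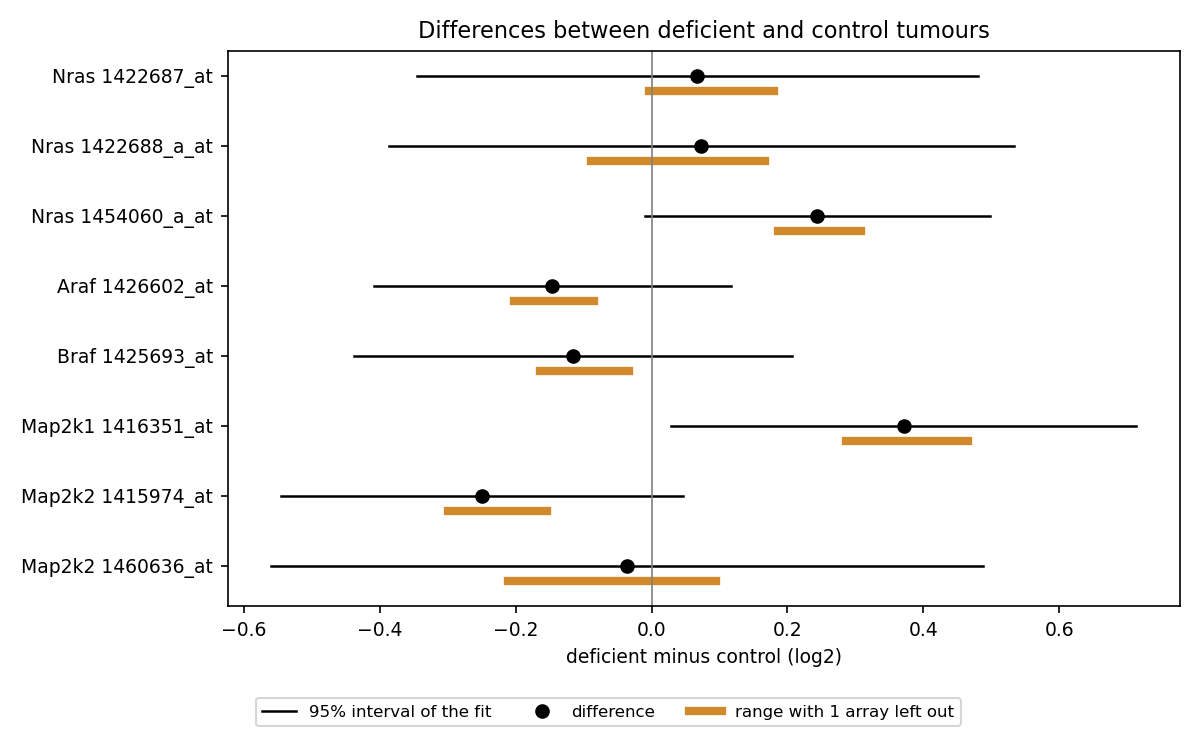
Difference between deficient and control tumours (log2, horizontal axis) for each member probeset. Points are differences, thin lines their 95% intervals in the fit of all probesets, and thick bars the range with 1 of the 14 arrays left out at a time. The Map2k1 interval, 0.03 to 0.71, is the 1 of 8 that does not include 0, before adjustment for the number of probesets tested and with all arrays taken as independent.

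The spread among deficient arrays was wider than among controls in 7 of the 8 member probesets, as it was in 69.4% of all tested probesets. The ratio of the deficient SD to the control SD was 2.01 for Map2k1, 1.92 for Map2k2 1415974_at and 1.38 to 1.85 for the probesets of Araf, Braf and Nras, beside a median of 1.31 over all tested probesets. The exception was Map2k2 1460636_at, at 0.707.

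For Map2k1 and 1 of the Map2k2 probesets much of this spread lay between leading numbers. With values in no order by number the share of within-group variation between numbers would be 33.3%, and its median over all tested probesets was 50.5%. Of the within-group variation of Map2k1, 81.8% lay between arrays of different leading numbers, a share exceeded by 6.02% of tested probesets. The mean level of Map2k1 was 10.75 in deficient 3 and 6, 10.57 in deficient 2, 10.23 in deficient 4 and 7 and 9.89 in deficient 1 and 5, against 10.13 in controls 1 and 4 and 9.89 in the 5 other controls. Deficient 1 and 5 thus stood at the level of the larger control set. Without deficient 3 and 6 the Map2k1 difference was 0.20, without deficient 1 and 5 it was 0.55 (limma adjusted p = 0.0593), and without the 5 controls that share a number it was 0.20. With a random block for the leading number it was 0.35 (limma adjusted p = 0.989). The unadjusted p of Map2k1, 0.0358 over 14 arrays, was 0.0955 with this block and 0.240 with the arrays of each number averaged, and with 1 array left out it ran from 0.00631 to 0.0787.

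For Map2k2 1415974_at the share between leading numbers was 68.3%. Deficient 1 and 5 averaged 7.12, while deficient 3 and 6 averaged 7.64, deficient 2 read 7.61 and deficient 4 and 7 averaged 7.75, against 7.90 in controls 1 and 4 and 7.71 in the other controls. The low mean of deficient tumours lay mostly in deficient 1 and 5, and without them the difference was -0.09. For Nras 1454060_a_at the share was 27.8%, and without deficient 4 and 7, which averaged 8.08, the difference was 0.16. Map2k2 1460636_at had the lowest share of the 8, at 26.0%, and the remaining probesets had 33.4% to 51.1%.

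**Figure D3:**
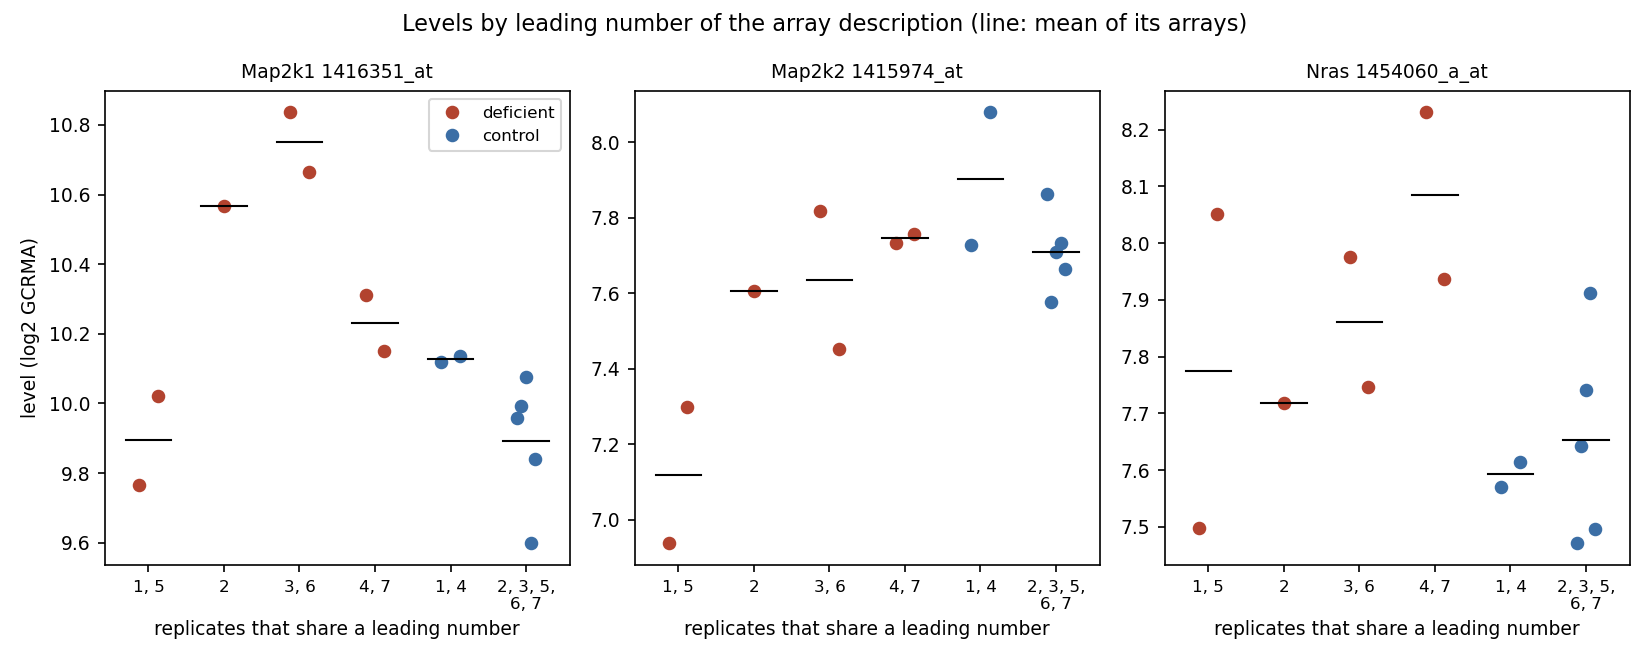
Level (log2 GCRMA, vertical axis) of Map2k1, Map2k2 1415974_at and Nras 1454060_a_at, with arrays placed by the leading number of their description and labelled by the replicates that share it (horizontal axis), deficient at the left and control at the right. Points are arrays and lines the mean of each number. Deficient 3 and 6 stand highest for Map2k1, at a mean of 10.75, and deficient 1 and 5 lowest for Map2k2, at 7.12.

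Map2k1 was high in the arrays in which markers of blood vessel endothelium were low. All 9 endothelial markers (Pecam1, Cdh5, Kdr, Tek, Tie1, Cldn5, Ramp2, Sox18 and Eng) were tested, with no call and 1 unadjusted p under 0.05 (Sox18). Their mean level ran from 4.83 to 8.42 in deficient arrays and from 6.87 to 8.32 in controls. All 9 lay lower in deficient tumours, and their mean level differed by -0.80 (exact permutation p = 0.192). Tie1 and Sox18 lay above 4 in 12 of 14 arrays and the other 7 markers in all. Deficient 3, at 4.83, and deficient 6, at 5.13, had the lowest endothelial levels and the highest Map2k1 levels, and deficient 1, at 8.42, had the highest endothelial and the lowest Map2k1 level of the deficient arrays. The deviations of both from their group means correlated at r = -0.93 (Spearman -0.93) over the 14 arrays. Within the deficient group r was -0.95 and within the control group -0.85 (7 arrays each), and without deficient 3 and 6 it was -0.91 over 12 arrays. Of all tested probesets 0.929% had an absolute r against the endothelial level at least as large, and 6 probesets had an r as low. These points share arrays and leading numbers, this pair was picked from 96 pairs of member probesets and marker lists, and it was the 1 pair with an absolute r over 0.9. With the endothelial level as a covariate, chosen after seeing the data, the Map2k1 difference was 0.15 (limma adjusted p = 0.426), against 0.37 without it. In bulk tumour RNA, fewer cells of a type and less RNA per cell cannot be told apart.

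**Figure D4:**
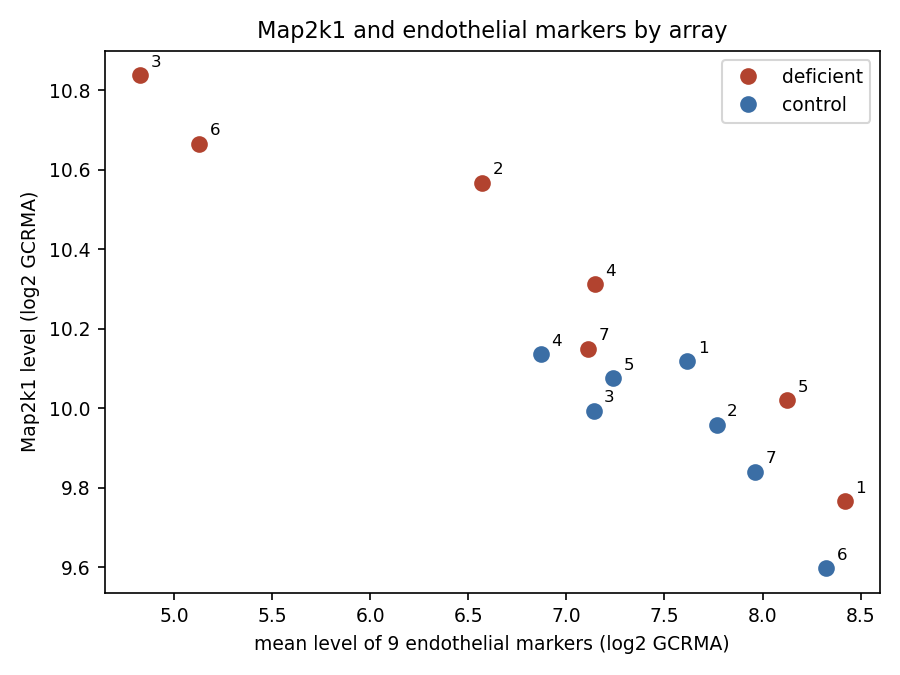
Map2k1 level against the mean level of 9 endothelial markers (both log2 GCRMA) in each array, labelled by its replicate number. Points are arrays. Map2k1 is highest, at 10.84, in the deficient array with the lowest endothelial level, 4.83, and controls lie along the same slope.

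As with the endothelial level, other marker lists tended to be low where Map2k1 was high. The deviations of Map2k1 correlated below 0 with all 12 lists. The values were -0.81 for the 7 alveolar type I markers and -0.81 for the 6 ciliated cell markers. They were -0.68 for the 8 fibroblast markers, -0.59 for the macrophage markers and -0.67 for the 2 erythroid markers, which lay under 4 in all arrays. The mean alveolar type I level was 8.57 to 10.52 in deficient arrays and 10.14 to 11.06 in controls. Of its markers Igfbp2 (-2.76) and Rtkn2 (-1.50) differed most between the groups, while the others ran from -0.70 (Hopx) to 0.05 (Pdpn). The mean ciliated level was 3.05 to 6.00 in deficient arrays and 4.70 to 8.19 in controls, with Dnah5 under 4 in all arrays and Foxj1 above 4 in 3. The 7 airway secretory markers had a mean level of 8.18 to 9.24 in deficient arrays and 8.82 to 12.60 in controls, and correlated with Map2k1 at -0.18. The part of the alveolar, ciliated, fibroblast, macrophage, erythroid and airway markers in the Map2k1 difference was not tested. Map2k2 1415974_at correlated with the endothelial level at -0.56 and, closest among the 12 lists, with the 8 macrophage markers at -0.71 (Spearman -0.78). The mean macrophage level was 8.27 to 9.85 in deficient arrays and 8.68 to 10.23 in controls, and its part in the Map2k2 difference was not tested. With the endothelial level as a covariate its difference was -0.36 (limma adjusted p = 0.206). The probesets of Nras, Araf and Braf correlated with the endothelial level at -0.48 to 0.23.

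The genes whose pattern lay closest to each member were taken by the Pearson correlation of deviations from the group means over 14 arrays, among 11702 single-gene probesets, with the brightest probeset of each member. For Map2k1 they were Cox19, which encodes a copper protein used in assembly of cytochrome oxidase (0.97), Me1, which encodes cytosolic malic enzyme (0.96), and the mitochondrial ribosomal protein gene Mrpl9 (0.95). For Map2k2 they were the splicing regulator gene Ptbp1 (0.93), Ndufa4, which encodes a respiratory chain subunit (0.93), and Mrpl23, another mitochondrial ribosomal protein gene (0.92). For Nras they were Gna12, which encodes a G protein alpha subunit (0.90), Ahcyl1 (0.85) and the actin regulator gene Vasp (0.84). For Braf they were Celsr1 (0.83), Tubgcp5 (0.81) and Tdrd3 (0.80), and for Araf they were Lyst (0.81), Poglut1 (0.80) and Agr2 (0.79). None of these 15 genes was called, and the MEK genes had the closest neighbours. Between the members themselves, Map2k1 and Map2k2 1415974_at correlated at 0.62 (Spearman 0.42), with group differences of opposite sign. Araf and Nras 1454060_a_at correlated at -0.54.

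Promoter sequences are shown for the MEK genes and Nras, the members with the widest differences, because the mice are labelled deficient in a factor that binds a short DNA core. RefSeq windows of build GRCm38.p6, from 250 bases before to 50 after the start site, were found for all 5 genes. They were searched on both strands for the hypoxia response core, ACGTG or GCGTG. Capitals mark matches of either strand, and each window is printed 5′ to 3′ on the strand of the gene.
Map2k1, chr9:64253556-64253855, minus strand: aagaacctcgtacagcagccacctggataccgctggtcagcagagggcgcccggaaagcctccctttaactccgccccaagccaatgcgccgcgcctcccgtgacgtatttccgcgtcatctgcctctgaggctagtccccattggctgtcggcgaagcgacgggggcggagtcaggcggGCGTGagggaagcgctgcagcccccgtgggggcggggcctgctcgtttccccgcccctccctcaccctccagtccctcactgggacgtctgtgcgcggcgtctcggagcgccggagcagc
Map2k2, chr10:81105665-81105964, plus strand: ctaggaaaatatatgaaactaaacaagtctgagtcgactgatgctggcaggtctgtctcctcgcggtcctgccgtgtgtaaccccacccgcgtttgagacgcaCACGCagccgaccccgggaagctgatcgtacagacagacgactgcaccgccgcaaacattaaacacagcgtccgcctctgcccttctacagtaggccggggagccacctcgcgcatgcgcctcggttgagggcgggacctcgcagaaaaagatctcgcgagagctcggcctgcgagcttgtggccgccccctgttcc
Nras, chr3:103058035-103058334, plus strand: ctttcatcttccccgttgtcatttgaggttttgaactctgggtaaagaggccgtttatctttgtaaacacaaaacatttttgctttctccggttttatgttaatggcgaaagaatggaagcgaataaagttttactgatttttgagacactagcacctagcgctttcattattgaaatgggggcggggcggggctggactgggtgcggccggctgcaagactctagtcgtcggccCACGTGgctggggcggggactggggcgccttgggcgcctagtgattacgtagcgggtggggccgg

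Map2k1 held 1 match, GCGTG at position -70 from the start site, and Map2k2 held 1 on the opposite strand, beginning at position -147. Nras held the palindrome CACGTG, which begins at position -15, is also an E-box and counts as a match on each strand. Braf held 2 matches and Araf none. Of all 32851 promoter windows of this length 43.8% held at least 1 match, and so did 69.2% of those with a GC content of 60% or more, as Map2k1 (69.0%), Map2k2 (60.7%) and Braf (65.0%) had. These are matches of letters, and binding was not measured.

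The other genes of the pathway were read from 9 lists by role, with 152 genes, of which 126 had a single-gene probeset and 103 were tested. None was called. At an unadjusted p under 0.05 there were 17, 13 higher and 4 lower in deficient tumours, or 16.5% of those tested, beside 14.7% of all tested probesets (8.09% higher and 6.57% lower). The median difference was 0.06, beside 0.02 over all tested probesets. All values that follow are differences with their SE, each gene is counted by its brightest tested probeset, and the smallest limma adjusted p among these probesets was 0.126.

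Upstream of the cascade few genes stood out. Of 15 Ras-related GTPase genes 9 lay higher and 6 lower (median 0.06), with none at an unadjusted p under 0.05, and Rap1b at 0.17 (SE 0.10), Rras at -0.21 (SE 0.14) and Rasl11b at -0.53 (SE 0.36). Of 9 genes of receptor adaptors and exchange factors 4 lay higher and 5 lower (median -0.09). Rapgef1, which encodes a Rap1 exchange factor that binds Crk, read 8.05 ± 0.16 in deficient tumours and 8.35 ± 0.06 in controls (-0.30, SE 0.09, limma adjusted p = 0.160). All 7 deficient arrays lay below every control (exact permutation p = 0.000583, the smallest that test can give). Groups that did not overlap were found in 0.496% of all tested probesets. Without deficient 1 and 5 the Rapgef1 difference was -0.37 and passed (limma adjusted p = 0.0472). That fit called 289 probesets over all, against 5 with all arrays. Of 33 alternatives Rapgef1 passed in 2, the other being array weights, which called 1900 probesets. Rasgrf1, which encodes a calcium-regulated exchange factor, differed by 0.98 (SE 0.36, adjusted p = 0.237), with 0.96 in its other probeset, and the Ras exchange factor gene Sos2 by 0.30 (SE 0.18). Of 4 GTPase-activating protein genes, whose products switch Ras off, 1 lay higher and 3 lower, with Rasa2 at -0.59 (SE 0.32), Rasa3 at 0.35 (SE 0.20) and Dab2ip at -0.12 (SE 0.10).

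No gene that modifies Ras or holds the kinases together was called, and by the brightest probeset their differences ran from -0.48 to 0.32. Of 10 genes of Ras lipid modification and traffic 6 lay higher and 4 lower (median 0.15). Rce1, which encodes the protease that trims the prenylated Ras tail, differed by -0.33 (SE 0.14, limma adjusted p = 0.291), Golga7, whose product partners a Ras palmitoyltransferase, by 0.25 (SE 0.12), and Lypla2, which encodes a thioesterase that removes palmitate, by 0.32 (SE 0.16). Of 23 scaffolds and regulators 17 lay higher and 6 lower (median 0.09). The 14-3-3 gene Ywhag differed by 0.32 (SE 0.11, adjusted p = 0.206), with 0.35 in its other probeset. Lamtor3, which encodes the MP1 scaffold that holds MEK1 and ERK1 on late endosomes, read 9.84 ± 0.17 in deficient tumours and 9.57 ± 0.14 in controls (0.26, SE 0.10, adjusted p = 0.252). Pea15a, which encodes a protein that retains ERK in the cytoplasm, differed by -0.48 (SE 0.19, limma adjusted p = 0.260), with -0.40 in its other probeset. Without deficient 1 and 5 it was -0.69 and passed (limma adjusted p = 0.0375), in a fit that called 289 probesets over all, against 5 with all arrays.

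Of 11 genes of other MAP kinases and their activators 6 lay higher and 5 lower (median 0.05). Mapk6, which encodes the atypical kinase ERK3, read 9.74 ± 0.23 in deficient tumours and 9.31 ± 0.14 in controls (0.44, SE 0.11, limma adjusted p = 0.134). The JNK1 gene Mapk8 differed by 0.43 (SE 0.15, adjusted p = 0.210) and Map2k3, which encodes an activator of p38, by -0.31 (SE 0.12, adjusted p = 0.258), with -0.42 in its other probeset. Of 10 genes of ERK-activated kinases and ETS factors 5 lay on each side (median 0.02). All 3 probesets of Elk3, an ETS factor that ERK phosphorylates, lay higher, with 0.44 (SE 0.14, adjusted p = 0.188), 0.41 and 0.51. The RSK2 gene Rps6ka3 differed by 0.29 (SE 0.12) and Mknk2, which encodes a kinase of the cap-binding protein eIF4E, by -0.21 (SE 0.11), with -0.76 in its other probeset. Of 14 genes of Ras effectors other than Raf 6 lay higher and 8 lower (median -0.04). Pik3ca, the catalytic subunit gene of a PI3-kinase that Ras binds, differed by 0.35 (SE 0.12, adjusted p = 0.209) but by 0.08 in its other probeset, and the Ras-binding Rab5 exchange factor genes Rin1 and Rin2 by 0.81 (SE 0.29) and 0.32 (SE 0.15).

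Of the 9 measured transcripts of the MAPK output list, genes that ERK signalling is known to induce, 7 were tested, and by their brightest probeset all 7 lay higher in deficient tumours, with a median of 0.24 and 3 at an unadjusted p under 0.05. The feedback inhibitor gene Spry2 read 11.44 ± 0.28 in deficient tumours and 10.88 ± 0.17 in controls (0.56, SE 0.13, limma adjusted p = 0.126). It was not called when arrays sharing a leading number were averaged or blocked, where no probeset passed. Of 33 alternatives Spry2 passed in 3, array weights among them, which called 1900 probesets over all, against 5 in the reported fit. Without deficient 3 and 6 it passed (0.70, limma adjusted p = 0.0306) in a fit that called 32. With the endothelial level as a covariate it passed (0.67, limma adjusted p = 0.0419) in a fit that called 33. Under that covariate 1 other listed gene passed, Ets1, an ETS factor gene also made in endothelium, at 0.73 (adjusted p = 0.0288) against 0.28 (SE 0.31) without it, a gene named after its values were seen. The ERK phosphatase gene Dusp6 differed by 0.55 (SE 0.20, adjusted p = 0.240), and the cyclin D1 gene Ccnd1 by 0.24 (SE 0.10), with 0.79 (limma adjusted p = 0.116) and 0.65 (adjusted p = 0.111) in its other probesets. The ETS factor gene Etv5, named after its values were seen, lay at 0.03 (SE 0.39) in its brightest probeset and at -0.38 (SE 0.39) in its other one, so the shared direction depends on the choice of probeset. These output genes had been seen to lie higher in the same arrays before, so their direction is no independent evidence.

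**Figure D5:**
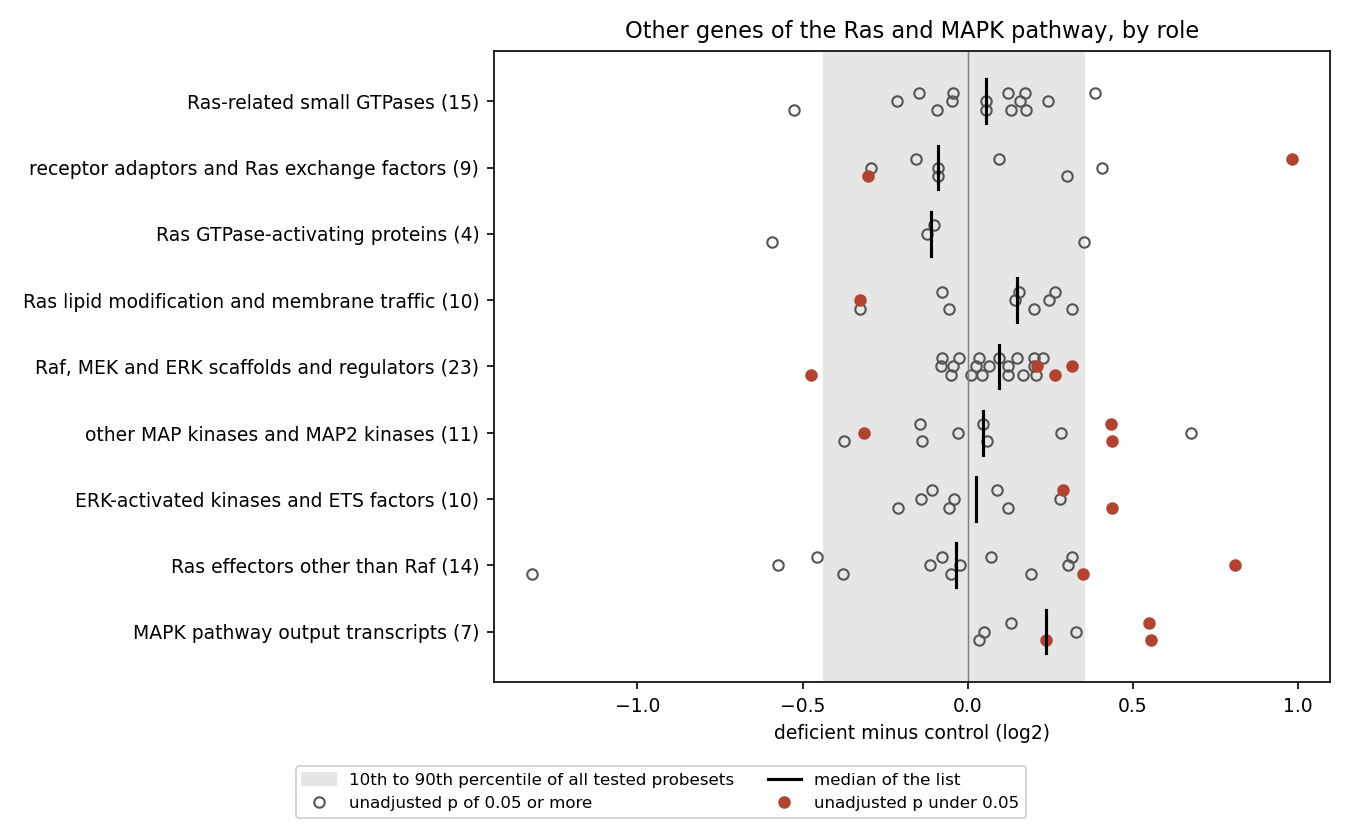
Difference between deficient and control tumours (log2, horizontal axis) for the tested genes of 9 pathway lists (number tested in brackets). Circles are genes by their brightest tested probeset, filled where the unadjusted p is under 0.05, vertical bars list medians, and the grey band runs from the 10th to the 90th percentile of all tested probesets (-0.44 to 0.35). Medians lie between -0.11 and 0.24.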

How the data were processed

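Total RNA extracted with Trizol from tumours was labelled with biotin and hybridised to Affymetrix mouse arrays, per the labels' protocols, 1 array per sample. The submitters' processing notes name GCRMA, and the authors deposited its output, log2 levels per probeset; no version of it was found in the labels or headers. They ran from 2.12 to 15.4, and 43.8% lay under 4, near the background that GCRMA sets. The table held 22690 probesets, 64 of them Affymetrix controls. Platform annotation, which can be old, named 1 gene for 20380 probesets, several for 691 and none for 1555; 20351 of the single genes matched the RefSeq table of GRCm38.p6, which changed 0 symbols.

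Probesets above 4 in at least 7 of 14 arrays were fitted with limma 3.58.1 in R 4.3.3 (lmFit with 1 group term, eBayes, two-sided, Benjamini-Hochberg over 12701 probesets). The limma step was tested on simulated data. Precision is limited by the number of arrays; the median SE of a difference was 0.18. Exact permutation tests used all splits of 14 arrays into 7 and 7, and the smallest p they can give is 0.000583. A listed gene was read by its tested probeset with the highest mean. Named were all member probesets, Epas1, the 3 genes with the smallest p in each list and the 3 genes most like each member. Members and lists were chosen with earlier results of these data known. Alternatives covered the filter, normalisation, variance model, array weights, leading number, replicate number, Eif2s3y, RNA quality, threshold and single arrays; 1 more, the endothelial level, was added after seeing the data.

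Replicate numbers occur in both groups, but same-numbered arrays correlated at -0.23 to 0.22 in their deviations, above 0.1 in 2 of 7 pairs, so they were not taken as pairs.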

Additional observations from a re-analysis of the deposited data

How the results depend on the processing

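The count of member probesets called was 0 in the reported fit and under every alternative run, single arrays left out included, other than array weights, where it was 1 (Map2k1, difference 0.42, limma adjusted p = 0.0272). Array weights gave 1900 called probesets over all and 18 called pathway genes, and weighted arrays between 0.277 and 4.15. The 5 calls over all probesets became 0 without a filter, with the exact permutation test, with arrays of 1 leading number blocked at random or averaged, without deficient 2, without deficient 4 and 7, and without the 5 controls of 1 number. They became 3 with the filter at all 14 arrays, 9 with trended and robust variances, 2 with the replicate block, 19 with the Eif2s3y covariate, 11 at the looser threshold of 0.10, 33 with the endothelial covariate, 32 without deficient 3 and 6, 289 without deficient 1 and 5, and 119 without controls 1 and 4. With 1 array left out they ran from 0 to 85, lowest without deficient 2 or 4 and highest without control 4. Besides the 18 with array weights, pathway genes called were 1 without deficient 3 and 6, 2 without deficient 1 and 5, and 2 with the endothelial covariate. In the reported fit and under every other alternative they were 0, single arrays left out included. The replicate block called 0 members and 0 pathway genes, as the fit without it did.

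Of 264 member values under 33 alternatives, 18 changed sign and all belonged to probesets whose reported difference was within 0.12 of 0. Braf was 0.0011 with array weights. Map2k2 1460636_at was 0.029 with quantile normalisation, 0.0444 with median centring, 0.149 without controls 1 and 4, 0.0305 without deficient 4 and 7 and 0.0253 with the RNA quality covariate, and it ran from -0.212 to 0.0954 with 1 array left out. Nras 1422687_at was -0.0088 without controls 1 and 4 and -0.078 without deficient 4 and 7, and ran from -0.0033 to 0.180 with 1 array left out. Nras 1422688_a_at was -0.0623 without deficient 3 and 6, -0.0252 without controls 1 and 4, -7e-04 without deficient 4 and 7 and -0.0843 with the endothelial covariate, and ran from -0.0895 to 0.167 with 1 array left out. Map2k1, Map2k2 1415974_at, Nras 1454060_a_at and Araf kept their sign under all 33, but not their size. Araf (-0.15) was -0.003 without the 5 controls of 1 number, -0.06 without deficient 4 and 7, -0.07 with median centring, -0.07 with arrays of 1 number averaged and -0.08 without deficient 4 alone, and Map2k2 1415974_at (-0.25) was -0.15 without deficient 1. Among 27 named pathway genes 4 changed sign, each without the 5 controls of 1 number, which leaves 2: Dab2ip 0.0561, Rasa2 0.0106, Rras 0.118 and Sos2 -0.246. The causes were not tested.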
